A study of Mus musculus with 132 samples.

Results

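The endothelial and hemogenic endothelium genes described here were a list of 37 genes with known roles in endothelium, taken from the count table by gene symbol. All 37 were found among its 25146 genes, and 36 had at least 1 read in at least 1 of the 23 RNA libraries, the exception being Bmx, a cytoplasmic tyrosine kinase gene. The rule itself uses symbols and no measured value.

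The libraries came from mouse E14-TG2a embryonic stem cells and their derivatives, sequenced as poly(A)-minus RNA so that nascent transcripts, introns included, were counted. Undifferentiated wild-type cells gave 2 technical replicates. Flk1+ mesoderm was sorted on day 4 of embryoid body culture with BMP4, Activin A and bFGF, and hematopoietic progenitor cells (HPCs) were sorted as CD41+ CD45- cells on day 7, after further culture with SCF and VEGF. Both stages were sampled in 3 genotypes, each represented by 3 clones grown from single edited or unedited colonies: wild-type (B9.3, C6.1 and C8.1), P1-CTCF-KO (E7.1, E7.2 and E9.1) and P2-CTCF-KO (D10.1, D2.1 and another clone named E9.1). In the knockouts the CTCF site just upstream of the distal (P1) or proximal (P2) Runx1 promoter was deleted with CRISPR-Cas9, and neither Runx1 promoter itself was targeted. There were 3 mesoderm libraries per genotype, and 4 wild-type, 3 P1-CTCF-KO and 5 P2-CTCF-KO HPC libraries, because clones B9.3, D10.1 and D2.1 each gave a second HPC library (B9.3-2, D10.1-2 and D2.1-2). The study asked whether loss of these CTCF sites alters Runx1 chromatin structure, expression and hematopoietic differentiation. The 37 genes were followed here across the same stages and clones.

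Hemogenic endothelium is the subset of embryonic endothelium from which the first blood progenitors emerge, in a change of cell identity called the endothelial-to-hematopoietic transition. Endothelial cells are recognised by junction proteins such as VE-cadherin (Cdh5) and PECAM-1 (Pecam1), by the angiopoietin receptor Tie2 (Tek) and by SOXF transcription factors (Sox7, Sox17 and Sox18). During the transition cells lose adherens junctions and much of the endothelial programme, while Pecam1, Cd34 and Tie1 are known to be shared by endothelium and early blood progenitors.

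Library totals were 20532578 and 24283287 reads in undifferentiated cells, 18233679 to 24406998 in mesoderm and 7805102 to 13513677 in HPCs, of which 56.3% to 62.5% fell on 185 entries with several genomic copies. Levels below are read counts brought to a common library size (CPM) and scaled over all 23 libraries by trimmed mean of M-values (TMM), a scaling that sets the bulk of genes level between libraries. TMM set the effective sizes of the undifferentiated libraries far above their totals, so a level set against undifferentiated cells leans on this scaling, and the direction under library totals is given beside those results. Reads on the 37 genes were few, from 87 to 3554 per library. As these were bulk libraries, fewer cells of a type and less RNA per cell cannot be told apart.

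Wild-type mesoderm B9.3, P1-CTCF-KO mesoderm E9.1 and P2-CTCF-KO HPC D2.1 stood apart. The summed level of the 37 genes was 206 CPM in wild-type mesoderm B9.3, against 13.5 in C6.1 and 28.3 in C8.1, so that B9.3 alone held 83.1% of the wild-type mesoderm signal. In P1-CTCF-KO mesoderm the sums were 55.5 (E7.1), 16.7 (E7.2) and 128 CPM (E9.1). For 33 of the 36 genes with a count in mesoderm, wild-type B9.3 and P1-CTCF-KO E9.1 were the highest pair among the 9 mesoderm libraries, the exceptions being Apln, Aplnr and Gja5. At the HPC stage the sum was 141 CPM in P2-CTCF-KO D2.1 and 17.6 to 35.9 CPM in the other 11 libraries. The second HPC library of that clone, D2.1-2, gave 20.2 CPM. The main test results that rest on these libraries are given with and without them.

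**Figure D1:**
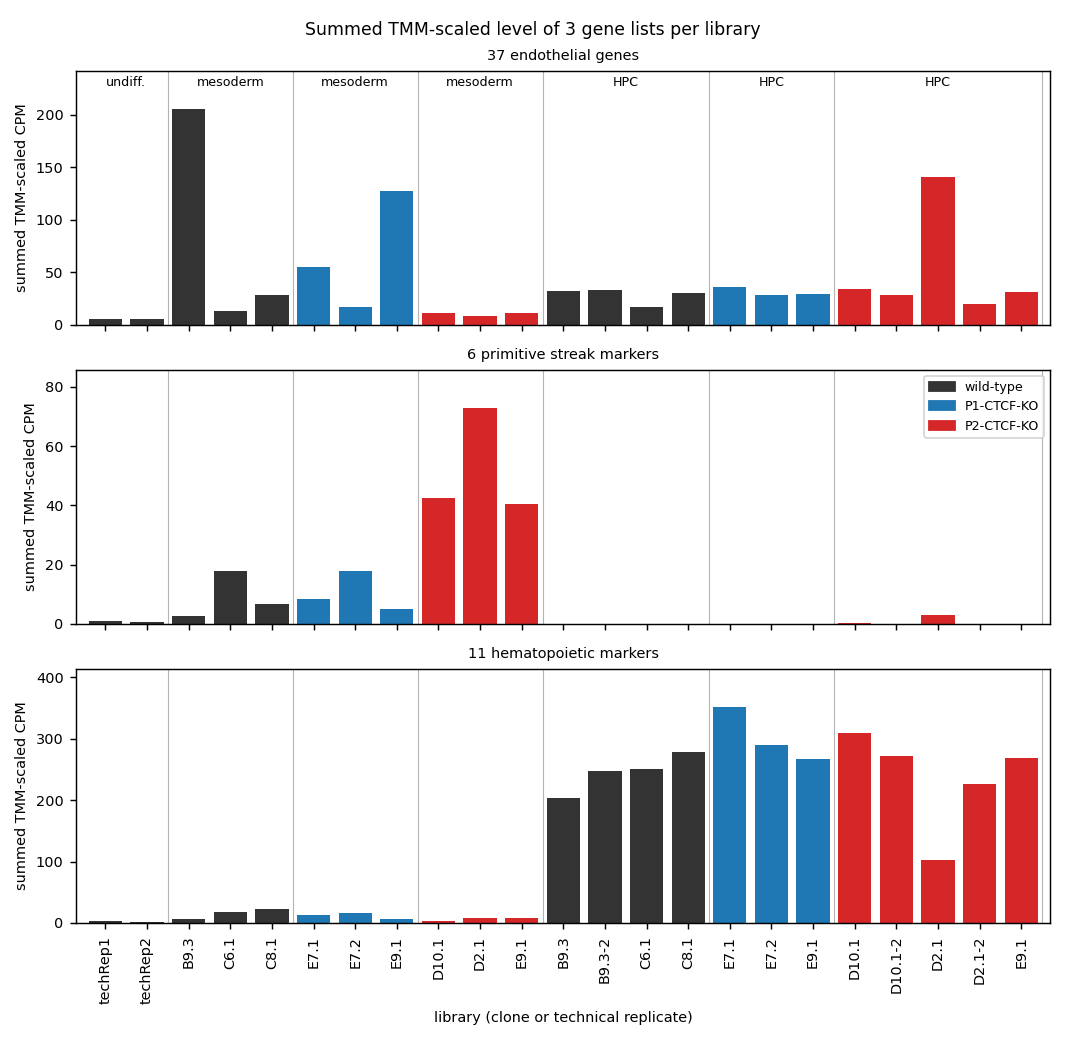
Summed level of the 37 endothelial genes, of 6 primitive streak markers and of 11 hematopoietic markers in each of the 23 libraries, as TMM-scaled CPM on linear axes starting at 0, with 1 bar per library. The endothelial sum reached 206 CPM in wild-type mesoderm B9.3, 128 in P1-CTCF-KO mesoderm E9.1 and 141 in P2-CTCF-KO HPC D2.1, while the 3 P2-CTCF-KO mesoderm libraries held 8.16 to 11.7 CPM.

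The sorted stages matched their labels by marker genes. Kdr (Flk1), Itga2b (CD41) and Ptprc (CD45) together summed to 18.1 to 40.8 CPM in mesoderm and 16.5 to 89.8 CPM in HPCs, against 0.137 and 0.147 in undifferentiated cells, and Ptprc was at 0 in all 9 mesoderm libraries and at most at 1.01 CPM in HPCs. The summed 11 hematopoietic markers ran from 102 to 352 CPM in HPCs and from 3.17 to 22.9 CPM in mesoderm.

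The 150 bases upstream of the start sites of 3 genes (mm9, read in the direction of transcription) are shown because their start sites lay in a peak at 1 stage alone in the chromatin accessibility data. Capitals mark matches, on either strand, to the searched words AGGAAG and CCGGAA, which contain the GGAA core recognised by ETS factors, and AACAAT, a core recognised by SOX factors. The GATA word AGATAA, also searched, was found in none of the 37 windows (0.0%), against 4.96% of 24958 genes.
Tie1, chr4:118162455-118162604, minus strand: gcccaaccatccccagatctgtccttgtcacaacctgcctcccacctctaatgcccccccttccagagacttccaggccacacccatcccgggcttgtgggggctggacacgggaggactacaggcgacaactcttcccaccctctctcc
Tek, chr4:94405829-94405978, plus strand: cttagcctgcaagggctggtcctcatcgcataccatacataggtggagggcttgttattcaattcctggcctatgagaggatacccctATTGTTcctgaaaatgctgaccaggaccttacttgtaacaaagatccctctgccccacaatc
Aplnr, chr2:84976366-84976515, plus strand: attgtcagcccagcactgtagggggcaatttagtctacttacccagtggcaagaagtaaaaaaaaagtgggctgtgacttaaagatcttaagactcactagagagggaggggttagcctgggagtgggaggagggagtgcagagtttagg
Among the 37 windows, AGGAAG was present in 18 (48.6%, against 19.0% of all genes), CCGGAA in 1 (2.7%, against 11.1%), either of these in 19 (51.4%, against 28.1%) and AACAAT in 5 (13.5%, against 4.75%), Tek, Emcn and Ptprb among them. None of these words was found upstream of Tie1 or Aplnr. A match is a description of the letters and not of binding.

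ATAC-seq marks accessible chromatin by transposase insertion. One merged peak list per stage was used, with 76766 peaks in mesoderm and 29037 in HPCs. These came from an E14-TG2a derivative that carries a Runx1-Venus reporter and a Runx1 +23 enhancer transgene, so they are not from the clones of the RNA libraries. Within 2 kb of the start site, 20 of the 37 genes (54.1%) had a mesoderm peak, against 59.4% of 24961 genes, and 16 (43.2%) had an HPC peak, against 39.5%. Both lists had a peak there for 12 genes (Pecam1, Sox17, Robo4, Icam2, Gja4, Nos3, Rasip1, Clec14a, Cd93, Calcrl, S1pr1 and Thsd1). Only the mesoderm list had one for 8 genes (Tek, Eng, Sox18, Ptprb, Gja5, Cd34, Apln and Aplnr). A start-site peak in the HPC list alone was found for 4 genes, Tie1, Cldn5, Plvap and Ecscr, which is 10.8% of the genes against 1.17% of all genes. The remaining 13 genes, Cdh5 among them, had none in either list.

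Among single genes, a peak covered the Pecam1 start site in both lists, the Tek and Aplnr start sites in mesoderm and the Tie1 start site in HPCs. Cdh5 had its nearest mesoderm peak centred 6821 bp into the gene and its nearest HPC peak 2055 bp into it, with further peaks of both lists near 9.4 and 16.4 kb. Over the whole gene with 2 kb upstream, 30 of the 37 genes (81.1%, against 69.8%) had a mesoderm peak and 24 (64.9%, against 48.2%) an HPC peak. No peak of either list fell at Sox7, Lyve1, Stab1 or Ramp2. Tek and Ptprb each held 7 mesoderm peaks. CTCF peaks of 416B cells, a hematopoietic progenitor line, fell in 17 of the 37 genes (45.9%, against 46.3%). Each list was a single merged call, so no replicate error could be given. Peaks were listed by position alone, so depth and height behind them were unknown.

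**Figure D2:**
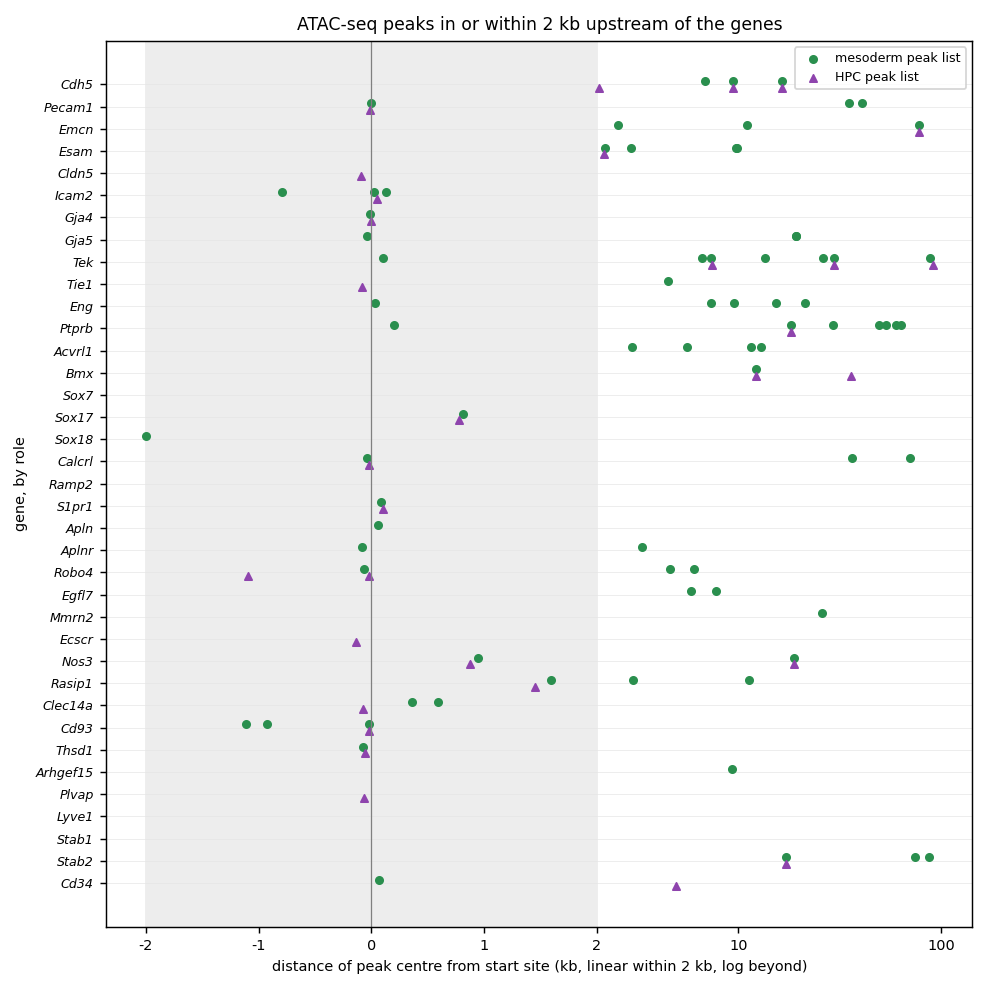
Distance in kb of each ATAC-seq peak centre from the start site of the 37 genes, for peaks within the gene or up to 2 kb upstream, on an axis that is linear within 2 kb and logarithmic beyond, with separate symbols for the mesoderm and HPC lists. The 76 mesoderm and 31 HPC peaks were spread through the genes, and 11 start sites in mesoderm and 8 in HPCs lay inside a peak.

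On the TMM scale, wild-type endothelial genes were low in undifferentiated cells and highest in mesoderm, through clone B9.3. They fell in part at the HPC stage. The SOXF gene Sox7, the apelin receptor gene Aplnr and the TGF-beta family receptor gene Acvrl1 fell, and Pecam1, Tie1, Esam and Cd34 did not pass the test. Only 1 of the 37 genes, Pecam1, averaged 1 CPM or more in undifferentiated cells, against 23 in wild-type mesoderm and 8 in wild-type HPCs (Cdh5, Pecam1, Tek, Tie1, Esam, Egfl7, Cd34 and Calcrl).

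Among the junction and adhesion genes, Cdh5 stood at 0 and 0.00981 CPM in undifferentiated cells, at 27.4, 0.364 and 2.58 CPM in wild-type mesoderm (B9.3, C6.1, C8.1) and at 0.859, 2.43, 0.888 and 0.666 CPM in wild-type HPCs (B9.3, B9.3-2, C6.1, C8.1). The mesoderm and HPC ranges overlapped, and the SD of 15 CPM over the 3 mesoderm libraries came from B9.3. Pecam1, in contrast, had 1.30 and 1.40 CPM in undifferentiated cells, 10.7, 0.364 and 2.76 CPM in mesoderm and 8.25, 7.17, 6.41 and 10.7 CPM in HPCs. The 4 HPC libraries were above mesoderm C6.1 and C8.1 and did not exceed B9.3 beyond rounding. Esam, a tight-junction adhesion molecule gene, averaged 1.17 ± 1.5 CPM in mesoderm (SD, n = 3) and 1.25 ± 0.692 in HPCs (SD, n = 4). The tight-junction gene Cldn5, the connexin genes Gja4 and Gja5, the adhesion gene Icam2 and the sialomucin gene Emcn stayed below 1 CPM in every wild-type library, except for Cldn5 (1.91 CPM) and Emcn (4.53 CPM) in mesoderm B9.3.

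Among the kinase, phosphatase and TGF-beta receptor genes, Tek had 0.961 and 0.638 CPM in undifferentiated cells, 20.9, 0.607 and 2.22 CPM in mesoderm and 6.01, 2.43, 1.87 and 2.08 CPM in HPCs. All 4 HPC values lay between the lowest and the highest mesoderm value. Tie1, the orphan partner of Tie2, averaged 2.91 ± 4.32 CPM in mesoderm and 3.50 ± 1.37 in HPCs. Acvrl1, encoding ALK1, had 0.0546 and 0.0687 CPM in undifferentiated cells, 2.15, 0.364 and 1.14 CPM in mesoderm and 0.0859, 0.128, 0 and 0 CPM in HPCs, so every HPC library was below every mesoderm library. Eng (endoglin, an accessory receptor of the same pathway) averaged 2.81 ± 2.83 CPM in mesoderm and 0.737 ± 0.382 in HPCs. Ptprb, the vascular endothelial phosphatase gene, averaged 3.55 ± 4.23 and 0.477 ± 0.427 CPM.

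Of the SOXF genes, Sox7 had 0.0164 and 0.00981 CPM in undifferentiated cells, 4.29, 1.09 and 1.44 CPM in mesoderm and 0 CPM in all 4 HPC libraries. It was the 1 SOXF gene seen in all 3 wild-type mesoderm libraries. Sox17, which marks hemogenic and arterial endothelium, had 0 and 0.00981 CPM in undifferentiated cells, 1.51, 0 and 0 CPM in mesoderm and 0.0859, 0.512, 0 and 0 CPM in HPCs. Sox18 had 4.58, 0 and 0.18 CPM in mesoderm, and 1 read in all 4 HPC libraries together. Sox17 and Sox18 did not pass the low-count filter and were not tested between the wild-type stages.

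The secreted, surface and signalling genes included Nos3, endothelial nitric oxide synthase, with 0.207 and 0.206 CPM in undifferentiated cells, 3.31, 0.121 and 0.540 CPM in mesoderm and 0, 0, 0 and 0.167 CPM in HPCs. Arhgef15 had 0.180 and 0.206 CPM, then 2.61, 0.121 and 0.120 CPM, then 0, 0.128, 0 and 0 CPM at the same stages. Both were highest in mesoderm B9.3. Mesoderm C6.1, at 0.121 CPM for both, was under the 0.364 CPM that 3 reads make in that library. Its order against undifferentiated cells is not resolved. Egfl7, a secreted regulator of vessel formation, averaged 7.00 ± 8.14 CPM in mesoderm and 1.91 ± 0.996 in HPCs. Mmrn2, Rasip1, Thsd1 and Cd93 averaged 1.41 to 3.03 CPM in wild-type mesoderm and 0.0855 to 0.987 CPM in HPCs, while Robo4, Ecscr and Clec14a averaged under 1 CPM at every wild-type stage.

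Among the G protein coupled receptors and ligands, Aplnr had 0 CPM in both undifferentiated libraries, 10.3, 4.62 and 3.12 CPM in mesoderm and 0.172, 0.128, 0 and 0 CPM in HPCs. Its mesoderm and HPC ranges lay far apart. Its ligand gene Apln was near the counting floor throughout, at 0 to 0.256 CPM in wild-type libraries. Calcrl, the adrenomedullin receptor gene, averaged 7.47 ± 9.61 CPM in mesoderm and 2.75 ± 1.25 in HPCs, while its partner Ramp2 averaged 0.313 CPM in mesoderm and had 0 reads in wild-type HPCs. S1pr1, a sphingosine 1-phosphate receptor gene, averaged 1.31 ± 1.53 and 0.176 ± 0.137 CPM.

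Of the sinusoid, lymphatic and progenitor surface genes, Cd34 had 3.77, 0 and 0.12 CPM in wild-type mesoderm and 0.395 to 1.67 CPM in wild-type HPCs. The scavenger receptor gene Stab1 had 8.88, 0 and 0.42 CPM in mesoderm and 0.167 to 0.344 CPM in HPCs. Plvap, a diaphragm protein gene of fenestrated endothelium, averaged 1.69 ± 2.71 and 0.208 ± 0.0885 CPM, and Stab2 stayed at or below 0.406 CPM. Lyve1, a hyaluronan receptor gene of lymphatic and yolk sac endothelium, had 1 read in wild-type mesoderm and 14 reads in wild-type HPCs, a ratio of 14.2 (95% counting interval 2.16 to 600). These intervals cover counting error only.

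**Figure D3:**
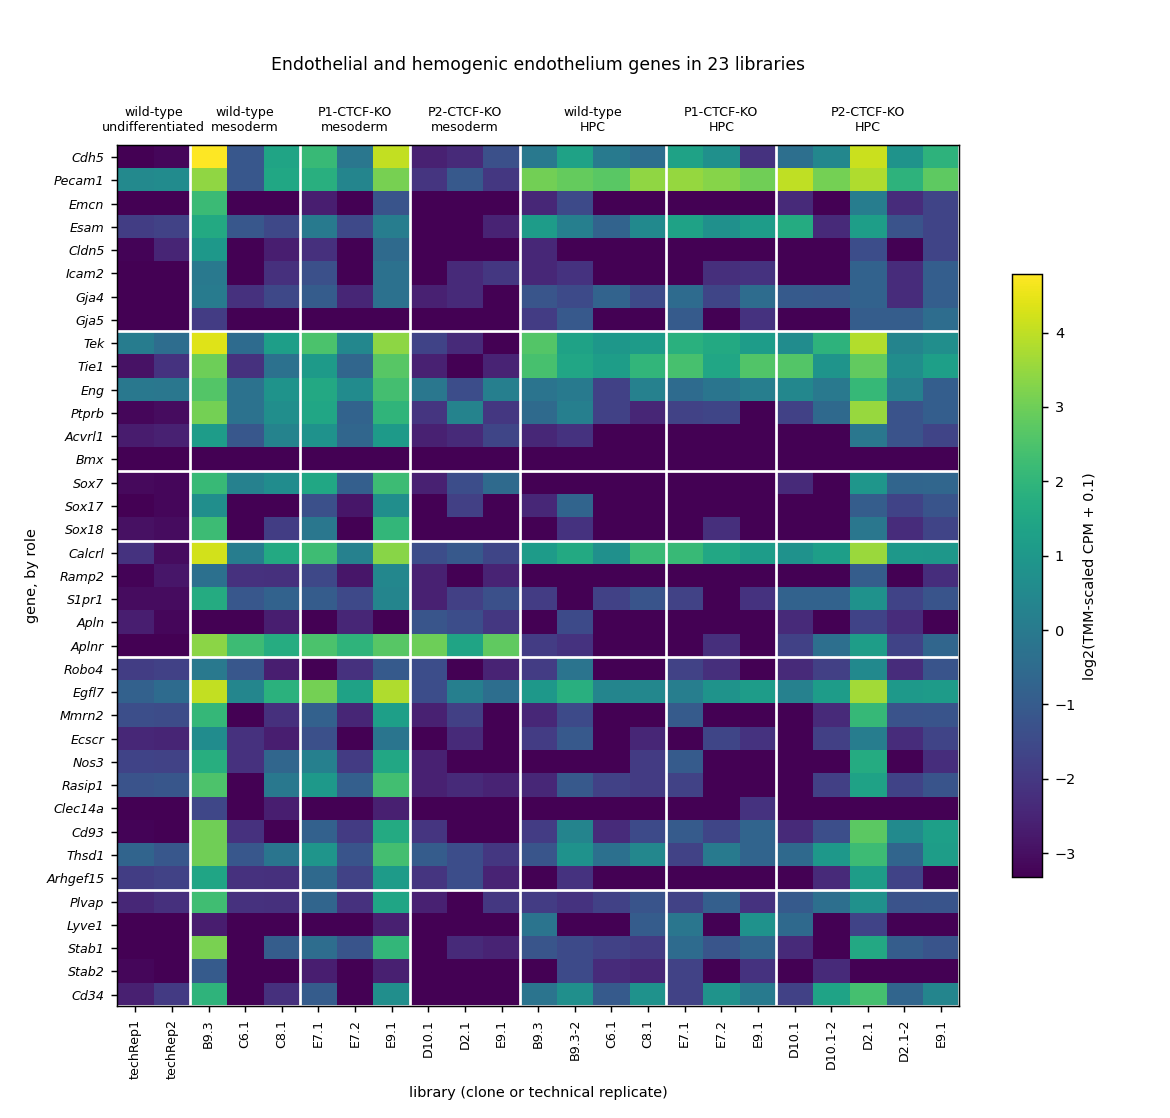
Level of the 37 genes, grouped by role, in the 23 libraries, as log2(TMM-scaled CPM + 0.1). The columns of mesoderm B9.3 and P1-CTCF-KO E9.1 and of HPC D2.1 are brightest (highest) for most genes, the P2-CTCF-KO mesoderm columns are near the floor except for Aplnr, and Pecam1 stays high across the HPC libraries.

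Per kilobase of gene span, a scale on which genes can be set side by side, the leading genes in wild-type mesoderm were Aplnr (1690 ± 1070 milliCPM per kb, SD, n = 3), Sox18, Egfl7, Cldn5 and Cd93 (880 to 391). In wild-type HPCs they were Tie1 (188 ± 73.4 milliCPM per kb, SD, n = 4), Egfl7, Pecam1, Gja4 and Esam (165 to 122). Neighbours in each order differed by less than 1 SD, so the order among them is not resolved.

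The stage comparisons were tested with edgeR's quasi-likelihood test, and a gene was called at a Benjamini-Hochberg adjusted p below 0.05 with an absolute log2 fold change above 1. Genes with very low counts were left out, which kept 22 of the 37 in the wild-type fit. A gene that is high at 1 stage or in 1 genotype and absent elsewhere passes such a filter through its high group. In every comparison below, the share called, separated or changed in 1 direction among the tested genes is therefore not evidence about the list. Because the libraries may share cultures or sorting days, p-values measure the spread between these samples.

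From undifferentiated cells to wild-type mesoderm, 17 of the 22 tested genes rose and none fell, while 10.7% of all genes tested rose. Cdh5 rose by a log2 fold change of 10.61 ± 1.88 (SE, edgeR adjusted p = 0.00212). Its pooled ratio on the TMM scale was 3510 with a counting interval of 628 to 139000, since a single undifferentiated read stood against 519. On the same scale Aplnr was at least 605-fold higher, with no undifferentiated read. Both folds rest on the TMM sizes of the undifferentiated libraries and would be smaller on library totals. Neither the interval nor the bound covers the choice of scaling. Sox7 rose by 7.12 ± 0.84 (edgeR adjusted p = 0.000657), Ptprb by 7.74 ± 1.20, Calcrl by 6.51 ± 1.17 and Tie1 by 5.36 ± 1.20 on the log2 scale. The other genes that rose were Acvrl1, Cd34, Cd93, Ecscr, Egfl7, Esam, Nos3, Plvap, Rasip1, Tek and Thsd1. Pecam1 (1.83 ± 0.75, edgeR adjusted p = 0.0889), Eng, Mmrn2, Arhgef15 and Robo4 did not pass. Without mesoderm B9.3, 6 genes rose (Aplnr, Calcrl, Cdh5, Egfl7, Ptprb and Tie1). With library totals in place of TMM scaling, 7 rose (Aplnr, Calcrl, Cd93, Cdh5, Ptprb, Sox7 and Tie1) and 1 fell (Robo4). Nos3, Rasip1, Thsd1, Esam and Ecscr then had log2 changes of -0.24 to -0.04. Of all 12899 genes tested, 166 (1.29%) rose and 11747 fell, and their median log2 change moved from -0.18 to -3.29. Pecam1 then stood at -1.01 ± 0.69. Without either undifferentiated replicate, 8 or 9 genes rose, in fits where the 1 undifferentiated library left is assumed to vary like the other groups.

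From wild-type mesoderm to HPCs, 11 of the 22 tested genes fell and none rose, against 12.5% of all genes tested that fell. The genes that fell were Cdh5, Eng, Sox7, Egfl7, Ptprb, Mmrn2, Nos3, Acvrl1, Rasip1, Aplnr and Arhgef15. Aplnr fell by 6.34 ± 0.72 on the log2 scale (edgeR adjusted p = 0.000133), with a pooled ratio of 88.2 (interval 29.9 to 430) from 3 HPC reads. Sox7 was at least 35.2-fold lower in HPCs (edgeR adjusted p = 0.00108). Acvrl1 fell by 4.67 ± 0.85 (edgeR adjusted p = 0.00184), with a pooled ratio of 29.1 (7.71 to 246). For Nos3 the pooled ratio was 33.1 (8.81 to 279) and for Arhgef15 it was 47.4 (8.11 to 1910), at edgeR adjusted p = 0.0118 and 0.0238. Cdh5 fell by 3.18 ± 0.98 (edgeR adjusted p = 0.031), a call lost with the clone as a block (edgeR adjusted p = 0.0972), under which 14 genes fell. Pecam1 (0.75 ± 0.61), Tie1 (0.19 ± 0.80), Esam (0.02 ± 0.72), Cd34 (-0.39 ± 0.95), Tek (-1.38 ± 0.82) and Calcrl (-1.48 ± 0.75) did not pass in either direction. With library totals, which moved the median log2 change of all genes from -0.01 to 0.52, 12 genes fell, beside 863 of all 12899. Cd93 and Plvap were added and Eng was lost (-1.6).

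These calls depended on mesoderm B9.3. Without that library, 17 of the genes were tested, and Cd34 (3.72 ± 1.0), Tie1 (2.82 ± 0.62), Pecam1 (2.21 ± 0.47) and Esam (2.15 ± 0.65) rose on the log2 scale with edgeR adjusted p of 0.0162, 0.00538, 0.00445 and 0.0294. Only Aplnr still fell (-5.66 ± 0.62), and Cdh5 stood at -0.54 ± 0.63 (edgeR adjusted p = 0.584). Sox7 and Acvrl1 no longer passed the low-count filter. Leaving out HPC library C6.1, C8.1 or B9.3 left 4, 5 and 7 genes called. Aplnr fell in all 9 fits that left out a single library, with a log2 range of -7.37 to -5.66. Sox7 and Acvrl1 were tested in 7 such fits and fell in each (-10.03 to -8.77 and -5.34 to -4.22). As the fit without B9.3 did not test Sox7 and Acvrl1, these ranges do not cover their dependence on that library.

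**Figure D4:**
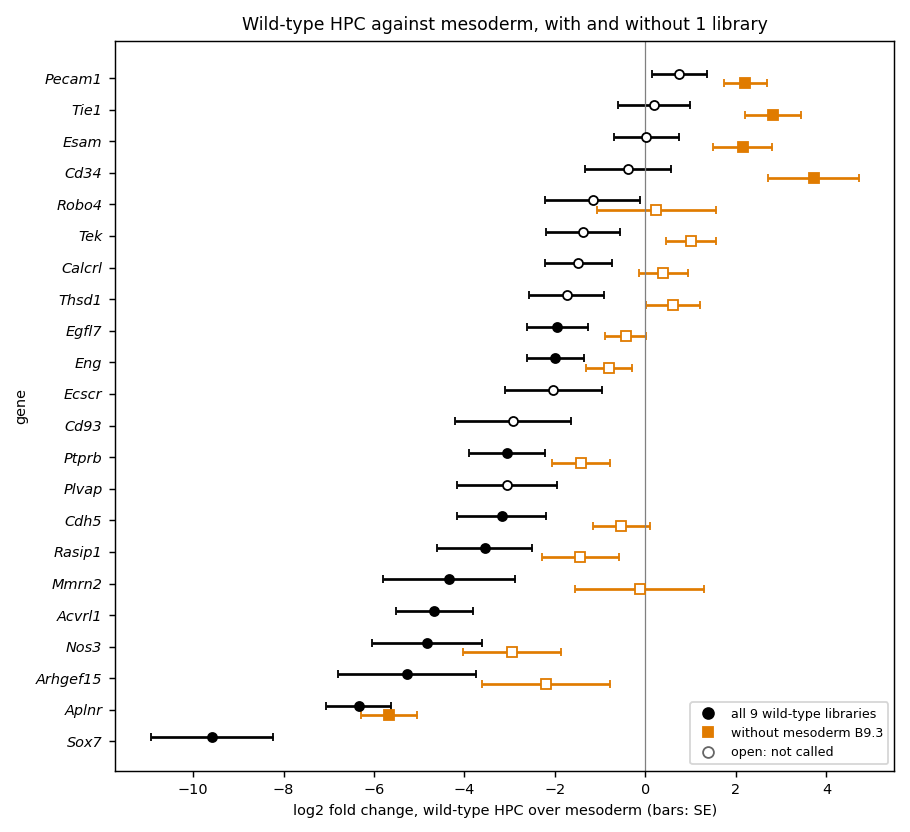
Fitted log2 fold change (± SE) of wild-type HPCs against mesoderm for the tested endothelial genes, with all 9 wild-type libraries and without mesoderm B9.3; open symbols mark genes not called, and the fitted value of Sox7 rests on 0 HPC reads. Without B9.3, Cd34, Tie1, Pecam1 and Esam lie to the right of 0 and Aplnr alone is called to the left.

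Against undifferentiated cells, 8 of the 22 tested genes were higher in wild-type HPCs (Cdh5, Pecam1, Tie1, Esam, Ptprb, Cd34, Calcrl and Aplnr), where 17% of all genes tested rose. Tie1 rose by 5.55 ± 1.19 (edgeR adjusted p = 0.00283) and Pecam1 by 2.58 ± 0.75 (edgeR adjusted p = 0.0141). With library totals 5 genes rose and 7 fell, beside 465 and 10968 of all 12899 genes tested. The median log2 change of all genes tested was then -2.76 in place of -0.24. Pecam1 stood at 0.07, a value far smaller than under TMM. Aplnr rested on 3 HPC reads against none. Without either undifferentiated replicate, which again leaves 1 library in that group, 4 or 5 genes rose, and without HPC B9.3-2, 5 rose.

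In P2-CTCF-KO mesoderm the summed level of the endothelial genes was the lowest of the mesoderm groups. The summed level was 11.7, 8.16 and 11.5 CPM (D10.1, D2.1, E9.1). Over the 3 libraries together, 22 of the 37 genes had 3 reads or fewer, against 4 in wild-type and 6 in P1-CTCF-KO mesoderm. The share of all genes at 3 reads or fewer was not counted. The wild-type count leaned on B9.3, since C6.1 alone held 111 reads with 15 genes at 0. The P2-CTCF-KO libraries held 170, 87 and 156 reads with 14, 16 and 16 genes at 0. Relative to library totals, C6.1 lay within the P2-CTCF-KO range. Aplnr was the only gene to average 1 CPM or more in P2-CTCF-KO mesoderm. Its levels were 7.78, 2.53 and 6.81 CPM in P2-CTCF-KO, 10.3, 4.62 and 3.12 CPM in wild-type and 5.46, 3.75 and 6.36 CPM in P1-CTCF-KO mesoderm. Its ligand gene Apln was not at its lowest there, with 0.344, 0.281 and 0.148 CPM in P2-CTCF-KO, 0, 0 and 0.06 CPM in wild-type and 0, 0.0823 and 0 CPM in P1-CTCF-KO mesoderm. The pooled ratio of P2-CTCF-KO to wild-type mesoderm was 10.9 (interval 1.55 to 473), and Apln was too low to be tested.

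Cdh5 had 0.0689, 0.0938 and 0.296 CPM in P2-CTCF-KO mesoderm and 4.34, 0.823 and 16.3 CPM in P1-CTCF-KO mesoderm (E7.1, E7.2, E9.1). On the TMM scale the P2-CTCF-KO libraries were below all 6 others, the nearest being wild-type C6.1 at 0.364 CPM. Tek had 0.207, 0.0938 and 0 CPM in P2-CTCF-KO and 5.46, 1.24 and 10.4 CPM in P1-CTCF-KO mesoderm. Pecam1 had 0.138, 0.375 and 0.148 CPM in P2-CTCF-KO and 3.35, 1.19 and 8.59 CPM in P1-CTCF-KO mesoderm. P2-CTCF-KO D2.1 was just above wild-type C6.1 for this gene, so those groups overlapped.

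Sox7 had 0.0689, 0.281 and 0.592 CPM in P2-CTCF-KO and 2.76, 0.453 and 4.65 CPM in P1-CTCF-KO mesoderm. Acvrl1 had 0.0689, 0.0938 and 0.222 CPM and 1.64, 0.535 and 2.03 CPM in the same groups. Nos3 had 0.0689, 0 and 0 CPM and 1.06, 0.165 and 2.82 CPM. For Acvrl1 and Nos3 the P2-CTCF-KO libraries were the lowest 3 of the 9 on the TMM scale, while for Sox7 the P1-CTCF-KO library E7.2 lay within their range. For Acvrl1, wild-type C6.1 and P2-CTCF-KO E9.1 both held 3 reads, and Nos3 had 3 reads or fewer over the P2-CTCF-KO libraries. For Sox7, wild-type C6.1 held 9 reads and P2-CTCF-KO E9.1 held 8. The order of Acvrl1, Nos3 and Sox7 against C6.1 thus depends on the scaling. Arhgef15 had 0.138, 0.281 and 0.074 CPM in P2-CTCF-KO and 0.587, 0.206 and 2.1 CPM in P1-CTCF-KO mesoderm. Sox17 had 0, 0.188 and 0 CPM and 0.294, 0.0412 and 1.51 CPM. Both of these overlapped with wild-type mesoderm.

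**Figure D5:**
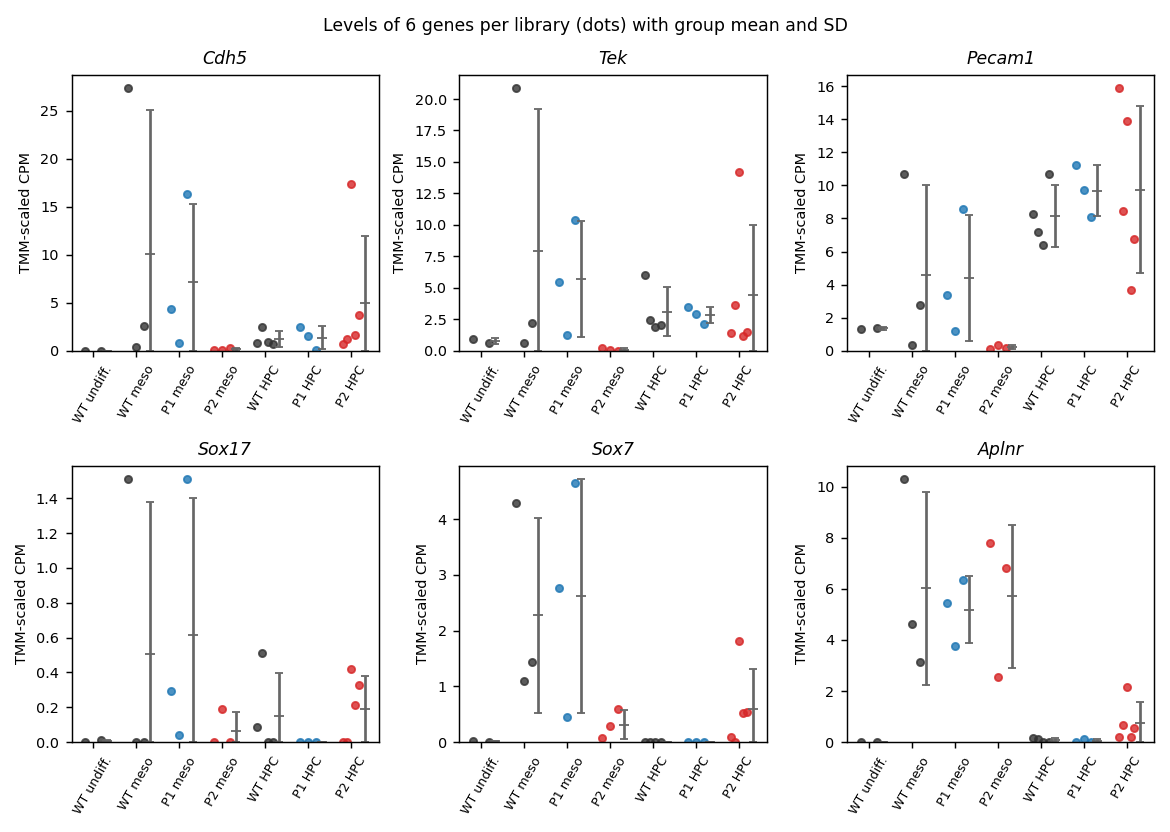
TMM-scaled CPM of Cdh5, Tek, Pecam1, Sox17, Sox7 and Aplnr in each library (dots) with the group mean and SD (lower bars end at 0), by stage and genotype. On this scale Cdh5 and Tek were lower in the 3 P2-CTCF-KO mesoderm libraries than in the 6 other mesoderm libraries, and Aplnr was not. For Cdh5 the gap to wild-type C6.1 depends on the scaling. D2.1 was the highest P2-CTCF-KO HPC library for 5 of the 6 genes, the exception being Pecam1.

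With edgeR and TMM scaling, none of the 18 tested genes was called in P2-CTCF-KO against wild-type mesoderm, beside 0.0342% of all genes tested. At an unadjusted p under 0.05 there were 16, and all 18 had a log2 fold change below 0, with a median of -4.58 (-4.56 with genes without reads at their bound) against 0.01 over all genes. Over all genes, 1408 of 8778 had an unadjusted p under 0.05. A gene nearly absent from P2-CTCF-KO passes the low-count filter through the other genotypes, so the signs and the median of the 18 are not evidence about the list. Tek stood at -6.18 ± 1.60 (edgeR adjusted p = 0.138), Cdh5 at -5.98 ± 1.76 (0.16), Pecam1 at -4.46 ± 1.22 (0.152), Acvrl1 at -3.22 ± 0.83 (0.138), Sox7 at -2.87 ± 0.96 (0.196) and Aplnr at -0.05 ± 0.47 (0.977). DESeq2 called 8 genes lower, where it called 2.33% of all genes it tested: Tek (-6.31, DESeq2 adjusted p = 0.00848), Calcrl (-4.71, 0.0113), Cdh5 (-6.07, 0.0141), Pecam1, Nos3, Acvrl1, Tie1 and Sox7. Without the low-count filter edgeR called 23 genes lower (2.49% of all genes). With library totals in place of TMM scaling it called 17 of the 18 lower, all but Aplnr, against 2.97% of all genes called lower. The number of calls in this comparison thus depended on the tool, the filter and the scaling.

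Leaving out wild-type mesoderm C6.1, the wild-type library with the lowest sum, gave 3 genes lower (Tek, Pecam1 and Acvrl1), and leaving out B9.3 gave none, with Cdh5 at -3.34 ± 1.55, Tek at -3.79 ± 1.27 and Pecam1 at -3.00 ± 1.09 (edgeR adjusted p = 0.507, 0.345 and 0.375). None was called with B9.3 and P1-CTCF-KO E9.1 both left out, an alternative chosen after seeing the data. Every P2-CTCF-KO library was below every wild-type library for 9 of the 18 tested genes (Egfl7, Calcrl, Tek, Tie1, Nos3, Cdh5, Esam, Sox7 and Acvrl1), against 11.1% of all genes tested. Against P1-CTCF-KO mesoderm this held for 12 of the 18, against 10.5% of all genes. The 18 genes could pass the low-count filter through the other genotypes, so neither count is evidence about the list. Both counts were made on TMM-scaled levels. For Cdh5, Nos3, Acvrl1, Sox7, Egfl7 and Tie1 the order against wild-type C6.1 depends on that scaling.

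Between P2-CTCF-KO and P1-CTCF-KO mesoderm edgeR called none of the 18 (0.0% of all genes). An unadjusted p under 0.05 was found for 14, beside 987 of all 8778 genes tested. The median log2 fold change was -4.21, against 0.01 over all genes. DESeq2 called 7 lower (Tek, Acvrl1, Nos3, Sox7, Cdh5, Pecam1 and Calcrl; 1.23% of all genes), and edgeR with library totals 17 lower (2.72% of all genes lower). Without wild-type B9.3, which belongs to neither group, Tek and Egfl7 were called lower (both edgeR adjusted p = 0.0497). Without P1-CTCF-KO E9.1 none of the 18 was called, with Cdh5 at -3.89 ± 1.81, Tek at -4.83 ± 1.73 and Pecam1 at -3.31 ± 1.22 (edgeR adjusted p = 0.628, 0.537 and 0.546). These comparisons share the P2-CTCF-KO libraries.

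P1-CTCF-KO and wild-type mesoderm did not differ detectably. None of the 18 tested genes was called by edgeR (0.0% of all genes) or DESeq2. None had an unadjusted p under 0.05, beside 168 of all 8778 genes, and the median log2 fold change was -0.17. Cdh5 stood at -0.56 ± 1.10 and Tek at -0.54 ± 0.95, errors wide enough to leave differences of several-fold undetected. Without wild-type B9.3 both turned direction, to 2.07 ± 0.99 and 1.85 ± 0.77 (edgeR adjusted p = 1.0 for both). Without P1-CTCF-KO E9.1 they stood at -2.10 ± 1.22 and -1.36 ± 1.08, and none of the 18 was called. For none of the 18 was every P1-CTCF-KO library below every wild-type library, against 2.95% of all genes.

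Some markers of other cell states differed between the mesoderm genotypes. The 6 primitive streak markers, T, Eomes, Mixl1, Mesp1, Fgf8 and Wnt3, summed to 40.6 to 73.0 CPM in P2-CTCF-KO mesoderm, to 2.73 to 18.0 CPM in wild-type and to 5.18 to 18.0 CPM in P1-CTCF-KO mesoderm, with all 6 detected in every P2-CTCF-KO library. Eomes alone was 12 to 25.8 CPM in P2-CTCF-KO and 0.812 to 5.71 CPM in wild-type mesoderm. Across wild-type clones, B9.3 had the lowest primitive streak sum (2.73 CPM) and the highest endothelial sum, and C6.1 the reverse (18.0 CPM). The 6 smooth muscle and mesenchyme markers summed to 1.45 to 7.77 CPM in P2-CTCF-KO and 9.23 to 31.0 CPM in wild-type mesoderm. Most of this was the collagen gene Col1a1, with means of 2.74 and 18.9 CPM, while Tagln averaged 0.232 and 0.22 CPM. The 6 cardiac markers summed to 1.10 to 1.55 and 0.84 to 1.46 CPM in the same groups, which overlapped. The 11 hematopoietic markers summed to 3.17 to 8.35 and 6.73 to 22.9 CPM in the same groups. Kdr was 24.2 to 29.8 CPM in P2-CTCF-KO and 16.9 to 37.8 CPM in wild-type mesoderm. Itga2b was 0.188 to 0.413 CPM in P2-CTCF-KO and 0.486 to 1.2 CPM in wild-type mesoderm. The part of these markers in the endothelial result was not tested.

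At the HPC stage no endothelial gene was called between genotypes, and 1 library held most of the P2-CTCF-KO signal. The summed levels were 32.2, 33.0, 17.6 and 30.7 CPM in wild-type, 35.9, 28.4 and 29.3 CPM in P1-CTCF-KO and 34.7, 28.7, 141, 20.2 and 31.1 CPM in P2-CTCF-KO HPCs (D10.1, D10.1-2, D2.1, D2.1-2, E9.1). D2.1 held 55.2% of the P2-CTCF-KO sum and was the highest of all 12 HPC libraries for 27 of the 36 genes with a count. It was higher than the second library of the same clone for 33 of the 34 genes with a count in either, the exception being Gja5.

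Cdh5 had 2.43, 1.57 and 0.127 CPM in P1-CTCF-KO HPCs (E7.1, E7.2, E9.1) and 0.679, 1.25, 17.4, 1.69 and 3.69 CPM in P2-CTCF-KO HPCs. Tek had 3.45, 2.91 and 2.15 CPM, and 1.45, 3.65, 14.2, 1.16 and 1.52 CPM. In both genes D2.1 was the outlying value, and the other P2-CTCF-KO libraries overlapped with the rest. Pecam1 had 11.2, 9.73 and 8.11 CPM, and 15.9, 8.46, 13.9, 3.70 and 6.73 CPM, with D10.1 above D2.1.

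Sox7, at 0 in all 7 wild-type and P1-CTCF-KO HPC libraries, had 0.0969, 0, 1.81, 0.528 and 0.543 CPM in P2-CTCF-KO HPCs. Sox17 had 0 CPM in every P1-CTCF-KO library and 0, 0, 0.419, 0.211 and 0.326 CPM in P2-CTCF-KO. Aplnr had 0, 0.112 and 0 CPM, and 0.194, 0.673, 2.16, 0.211 and 0.543 CPM. Each P2-CTCF-KO library was above each of the other 7, but D10.1, D2.1-2 and wild-type B9.3 (0.172 CPM) each had under 3 reads. The order among those libraries is not resolved, and the share of all genes separated in this way was not counted. Sox7 and Aplnr were too low to be tested between HPC genotypes. Nos3 had 0.406, 0 and 0 CPM in P1-CTCF-KO, and 0, 0, 3.07, 0 and 0.109 CPM in P2-CTCF-KO. Arhgef15 had 0 CPM in every P1-CTCF-KO library, and 0, 0.0961, 2.16, 0.211 and 0 CPM in P2-CTCF-KO. Acvrl1 had 0 CPM in every P1-CTCF-KO library, and 0, 0, 0.837, 0.317 and 0.217 CPM in P2-CTCF-KO. The reads of these 3 genes came mainly from D2.1.

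Of the 11 genes tested at the HPC stage, edgeR called none between P2-CTCF-KO and wild-type, P1-CTCF-KO and wild-type, or P2-CTCF-KO and P1-CTCF-KO, where 0.0% of all 7422 genes were called in each. At an unadjusted p under 0.05 there were 2 (Cdh5 and Cd93), 0 and 1, beside 145, 260 and 650 of all 7422 genes. DESeq2 called none of the members. Cdh5 stood at 2.16 ± 0.95 on the log2 scale in P2-CTCF-KO against wild-type HPCs (edgeR adjusted p = 1.0) and at 0.62 ± 0.66 without D2.1. Pecam1 stood at 0.29 ± 0.36 and at 0.09 ± 0.36 without D2.1.

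Other markers in HPC D2.1 also lay outside the range of its group. Its 11 hematopoietic markers summed to 102 CPM, against 226 to 309 CPM in the other P2-CTCF-KO HPC libraries, and the embryonic globin genes Hbb-bh1 and Hba-x were both at 11.7 CPM, against 26.8 to 80.4 and 31.6 to 115. Kdr was 18.1 CPM, against 3.91 to 10.2 CPM. Its primitive streak markers summed to 3.0 CPM, while these were at 0 in all 7 wild-type and P1-CTCF-KO HPC libraries. Runx1 was 53.0 CPM, within the 45.6 to 149 CPM of the others. The part of these values in the endothelial levels was not tested. In wild-type HPCs, smooth muscle and mesenchyme markers summed to 68.4 CPM in B9.3, where Tek was highest, and to 2.00 CPM in the lowest of the 4 libraries. Col1a1 made up 52.5 CPM of the B9.3 sum.

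In P2-CTCF-KO clones many of the genes were higher in HPCs than in mesoderm. Of 23 tested genes, 9 rose from mesoderm to HPCs in P2-CTCF-KO (Cdh5, Pecam1, Tek, Tie1, Esam, Egfl7, Cd34, Cd93 and Calcrl), against 16.5% of all genes, and 1 fell (Aplnr), against 11.7%. Pecam1 rose by 5.45 ± 0.96 (edgeR adjusted p = 0.000254), Tek by 5.31 ± 1.48 (0.00838) and Cdh5 by 4.94 ± 1.65 (0.024) on the log2 scale. Tie1 rose with a pooled ratio of 77.8 (interval 21.3 to 646), and Cd34, with no mesoderm read, was at least 28.1-fold higher. Aplnr fell by 2.83 ± 0.57 (edgeR adjusted p = 0.000817). Without HPC D2.1, 6 genes rose (Calcrl, Cd34, Esam, Pecam1, Tek and Tie1) and Aplnr fell. Without mesoderm D10.1 or E9.1, 4 rose and Aplnr fell. With library totals 17 rose, against 32.4% of all genes.

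In P1-CTCF-KO clones 4 of 23 tested genes fell from mesoderm to HPCs (Sox7, Acvrl1, Rasip1 and Aplnr) and none rose, against 16.1% of all genes that fell. Aplnr fell by 6.55 ± 1.13 (edgeR adjusted p = 0.000241), and Sox7 and Acvrl1 had 0 reads in the 3 HPC libraries. With the clone as a block 7 genes fell, Arhgef15, Egfl7 and Ptprb being added. Without P1-CTCF-KO mesoderm E7.2, 7 fell. Without P2-CTCF-KO HPC D2.1, 8 fell, and without wild-type mesoderm B9.3, 8 fell and 1 rose (Lyve1). The last 2 libraries belong to neither group compared, and leaving them out changes the shared estimate of spread and the set of genes tested. Without P1-CTCF-KO mesoderm E9.1, 3 fell (Acvrl1, Aplnr and Sox7) and 2 rose (Lyve1 and Pecam1).

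The difference between the stage changes was tested as an interaction. For P2-CTCF-KO minus wild-type, edgeR called none of 23 genes (0.0218% of all genes), although all 23 had an unadjusted p under 0.05 and a value above 0, with a median of 6.02, where 643 of 9170 genes had an unadjusted p under 0.05. Cdh5 stood at 8.11 ± 2.04 (edgeR adjusted p = 0.287), Tek at 6.72 ± 1.76 (0.294) and Pecam1 at 4.71 ± 1.16 (0.282). DESeq2 called 6 (Cdh5, Tek, Pecam1, Sox7, Calcrl and Egfl7), against 0.377% of all genes. Without wild-type mesoderm B9.3 the values were 5.43 ± 1.91 for Cdh5, 4.31 ± 1.61 for Tek and 3.24 ± 1.06 for Pecam1, and without HPC D2.1 they were 6.62 ± 1.85, 5.50 ± 1.59 and 4.56 ± 1.19. For P1-CTCF-KO minus wild-type, none of 23 was called (0.0% of all genes). None had an unadjusted p under 0.05, beside 306 of all 9170 genes, and the median was 0.40. DESeq2 called none there.

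A second list of 38 genes from the wider endothelial and hemogenic programme was counted in the same comparisons. From undifferentiated cells to wild-type mesoderm 20 of its 30 tested genes rose and none fell, where 10.7% of all genes rose. With library totals 9 rose and 9 fell, beside 166 and 11747 of all 12899 genes tested. From wild-type mesoderm to HPCs 7 rose (10.8% of all genes rose), among them the transcription factor genes Runx1 (3.19 ± 0.43 on the log2 scale), Gfi1b (5.0 ± 0.6), Lmo2 (2.29 ± 0.33), Tal1 (1.94 ± 0.21) and Fli1 (1.76 ± 0.58), and 7 fell (12.5% of all genes), namely Kdr (-2.04 ± 0.39), Notch1 (-2.89 ± 0.44), Nrp2 (-2.76 ± 0.63), Flt4 (-2.88 ± 0.86), Hey1 (-3.47 ± 1.11), Vegfa (-2.46 ± 0.66) and Ets1 (-1.27 ± 0.38). The fallen genes include VEGF receptor, co-receptor, ligand and Notch pathway genes. Kdr encodes Flk1, on which the mesoderm was sorted, so its fall is not independent of the sort. None of the 26 tested was called between mesoderm genotypes and none of the 20 tested between HPC genotypes by edgeR with TMM scaling. Library totals gave 10 lower in P2-CTCF-KO than in wild-type and 12 lower than in P1-CTCF-KO mesoderm, beside 2.97% and 2.72% of all genes. In P2-CTCF-KO clones 12 of 28 rose and 2 fell from mesoderm to HPCs, against 16.5% and 11.7% of all genes. With library totals 15 rose, against 32.4% of all genes, and none fell.

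Eng, Plvap and Stab1 overlap a gene on the opposite strand (Fpgs, Gtpbp3 and Nt5dc2) that held more reads than they did, and the strand setting of the counting was not stated in the sources used here, so reads in the overlaps cannot be assigned. Of the 37 genes, 10 overlap an entry on the opposite strand.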

How the data were processed

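Poly(A)-minus RNA was sequenced in 23 mouse libraries, with no library left out. The deposited counts were made by the authors with STAR on mm9 and featureCounts over exons and introns, and the gene annotation and strand setting are not given in the sources used here. Ribosomal RNA depletion is described for some samples only. The deposited ATAC-seq and CTCF lists hold peak positions alone, which the authors called with MACS2 on merged libraries (Bowtie2 is the aligner of the submitters' notes). Peak positions were converted to a 1-based start, and upstream sequences were read from the mm9 genome. Some upstream sequences are not reported here.

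Counts were tested as deposited with edgeR 4.0.16 (quasi-likelihood test, TMM, minimum count 10, Benjamini-Hochberg adjustment over all genes tested) in R 4.3.3, separately for the 9 wild-type libraries, the mesoderm libraries, the HPC libraries and, for the knockout stage changes and interactions, all mesoderm and HPC libraries. DESeq2 1.42.0, limma 3.58.1, Python 3.11.15, numpy 2.4.6, pandas 2.3.3, scipy 1.17.1 and matplotlib 3.10.9 were also used. The edgeR script was tested on simulated data. Groups were taken from the labels. Second HPC libraries share a clone and the undifferentiated libraries are technical replicates, so p-values cover only the spread between these libraries. Over 9170 genes, mesoderm and HPC deviations of the same clone correlated at -0.0691 to 0.188; the pairing comes from the clone names in the labels.

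Every gene of the list was named, and values of every library were given for Cdh5, Pecam1, Tek and Sox17, for genes called in P2-CTCF-KO against wild-type mesoderm and for the 5 with the largest change in each direction among those called in wild-type HPCs against mesoderm. The genes and lists were chosen with earlier results of these data known. A group without reads was set at a floor of 3 counts over the group, and 95% intervals of count ratios are exact and cover counting error only. Alternatives were DESeq2, RLE factors, no filter, the clone as a block, summed libraries of a clone, each library left out, other peak windows, and, chosen after seeing the data, library totals without scaling factors and the joint removal of wild-type B9.3 and P1-CTCF-KO E9.1 mesoderm.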

Additional observations from a re-analysis of the deposited data

Results flagged for a closer look

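In groups of 4 to 10 libraries, a value was looked at again where its gap to the nearest library exceeded Dixon's 95% critical value (0.829 of the range for 4 libraries, 0.71 for 5), which chance passes in about 1 of 20 groups. In P2-CTCF-KO HPCs, D2.1 lay apart for Cdh5 (17.4 CPM), Tek (14.2 CPM), Aplnr (2.16 CPM), Arhgef15 (2.16 CPM), Nos3 (3.07 CPM) and the summed level of the 37 genes (141 CPM). Over all the genes with a count there, D2.1 lay apart for 19 of 35, and D10.1-2 and D2.1-2 for 1 each.

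In wild-type HPCs, B9.3-2 lay apart for Cdh5 (2.43 CPM), Sox17 (0.512 CPM) and Arhgef15 (0.128 CPM), B9.3 for Tek (6.01 CPM), C8.1 for Nos3 (0.167 CPM) and C6.1, on the low side, for the summed level (17.6 CPM). The values of Sox17, Arhgef15 and Nos3 rest on few reads. Over all the genes with a count there, B9.3-2 lay apart for 6 of 33, B9.3 for 2 and C8.1 for 1.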

How the results depend on the processing

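Counts of called genes among the 37 are given for the alternatives that moved them. They show sensitivity alone, and without the share of all genes beside them they are not evidence about the list. Without the filter on low counts they were 32 for wild-type mesoderm against undifferentiated cells, 22 for wild-type HPCs against mesoderm, 17 for wild-type HPCs against undifferentiated cells, 23 for P2-CTCF-KO against wild-type and 13 for P2-CTCF-KO against P1-CTCF-KO in mesoderm. DESeq2 gave 8 and 7 in those mesoderm comparisons, 7 for P1-CTCF-KO HPCs against mesoderm and 6 for the P2-CTCF-KO minus wild-type interaction. With the clone as a replicate block, for which the pairing comes from clone names, P1-CTCF-KO HPCs against mesoderm gave 7, and no other count moved by over 1.5 times. Library totals without scaling factors gave 8, 17, 17 and 18 for wild-type mesoderm against undifferentiated cells, P2-CTCF-KO against wild-type and against P1-CTCF-KO mesoderm, and P2-CTCF-KO HPCs against mesoderm. They turned the log2 change from undifferentiated cells to mesoderm of Nos3 to -0.12, Rasip1 to -0.08, Thsd1 to -0.04, Esam to -0.24 and Ecscr to -0.15, and leaving out mesoderm B9.3 turned that of Cd34 to -0.36. RLE factors moved the summed undifferentiated level from 6.06 to 6.14 CPM. With wider peaks only, 13 and 9 genes had a mesoderm and an HPC peak at the start site, and 15 an HPC peak over the gene.

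Leaving out single libraries gave 6 to 19 calls for wild-type mesoderm against undifferentiated cells (8 and 9 without technical replicates 1 and 2), 4 to 12 for wild-type HPCs against mesoderm and 4 to 11 for wild-type HPCs against undifferentiated cells. It gave 0 to 3 and 0 to 2 for P2-CTCF-KO against wild-type and P1-CTCF-KO mesoderm, 3 to 9 for P1-CTCF-KO and 5 to 12 for P2-CTCF-KO HPCs against mesoderm. The other comparisons had no call in any of these fits. The cause of these changes was not tested. Low counts limit all levels near 3 reads per group.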
